A study of Mus musculus with 6 samples.

Results

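A set of 10 endothelial-associated genes was followed across day 3 embryoid bodies, floating clusters formed by mouse embryonic stem (ES) cells as they differentiate. The set holds Cdh5, Esam, Pecam1, Tek, Tie1, Cd34, Egfl7, Ramp2, Plvap and Klhl6, taken by gene symbol, and comprises 10 of the 21461 named genes and 16 of the 46632 probes on the arrays. The members were chosen with their values on these arrays already known, so those values are given as a description. Total RNA was hybridised to 6 Illumina bead arrays on 1 slide. The labels assign 3 arrays to wild type E14 ES cells and the other 3 to ES cells with an endoglin knockout, with replicates numbered 1 to 3 under each label (called here wild type 1 to 3 and knockout 1 to 3). All 6 samples are labelled as strain C57BL/6, and the labels name no other allele, agent or clone, and they leave unstated if cultures were independent, so a p-value here covers only the scatter of these arrays.

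Endothelial cells are held together by homophilic adhesion molecules at their junctions, of which VE-cadherin (Cdh5) is the defining one. In the mouse embryo the first endothelial and blood cells arise together from Flk1-positive mesoderm, and the ETS factor Etv2 is required for both. The angiopoietin receptor Tie2 (Tek) and its relative Tie1 appear on the same early cells. Endoglin, the product of the targeted gene Eng, is a co-receptor for TGF-beta family ligands that is itself abundant on endothelium.

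Some of these genes differed clearly in intensity between arrays and others were nearly level, and promoter sequences are shown for Klhl6, which had the widest range, beside 2 genes that were nearly level and 1 that was near background. RefSeq promoter entries (build GRCm38.p6) were matched for 5 of the 10 genes, namely Klhl6, Tek, Tie1, Egfl7 and Cd34, in 7 windows. For the 4 genes with a window at the outer end of the annotated gene, the 250 bases before the start site are shown. Capitals mark GGAA or its reverse complement TTCC, the core of the sites bound by ETS factors.
Klhl6, chr16:19983050-19983299, minus strand: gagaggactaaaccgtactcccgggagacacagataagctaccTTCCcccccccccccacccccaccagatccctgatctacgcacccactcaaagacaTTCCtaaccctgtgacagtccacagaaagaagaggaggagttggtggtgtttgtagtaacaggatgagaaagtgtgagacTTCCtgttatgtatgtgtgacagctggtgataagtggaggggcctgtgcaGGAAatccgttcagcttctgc
Tie1, chr4:118489850-118490099, minus strand: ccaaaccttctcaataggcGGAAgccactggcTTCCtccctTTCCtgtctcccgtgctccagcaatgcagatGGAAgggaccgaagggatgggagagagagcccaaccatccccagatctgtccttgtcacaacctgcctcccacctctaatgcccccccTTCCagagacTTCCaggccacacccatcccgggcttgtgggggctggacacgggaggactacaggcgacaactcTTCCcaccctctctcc
Egfl7, chr2:26580833-26581082, plus strand: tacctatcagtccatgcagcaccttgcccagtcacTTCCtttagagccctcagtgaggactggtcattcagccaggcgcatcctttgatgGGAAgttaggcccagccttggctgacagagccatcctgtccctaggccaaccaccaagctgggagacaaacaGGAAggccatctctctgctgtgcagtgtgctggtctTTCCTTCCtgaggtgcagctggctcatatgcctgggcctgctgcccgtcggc
Cd34, chr1:194938571-194938820, plus strand: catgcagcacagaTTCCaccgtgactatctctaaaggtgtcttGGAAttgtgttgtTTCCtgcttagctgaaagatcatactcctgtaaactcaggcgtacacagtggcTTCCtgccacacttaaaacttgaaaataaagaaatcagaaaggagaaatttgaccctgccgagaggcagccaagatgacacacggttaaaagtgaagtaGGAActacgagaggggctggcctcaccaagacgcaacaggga
As deposited, Klhl6 ranged over 5.80-fold between arrays, whereas Egfl7 (brightest probe, 1.23-fold) and Cd34 (1.28-fold) differed little and Tie1 was above background on 2 arrays only. GGAA, counted on both strands, occurred 4 times before Klhl6, 7 times before Tie1, 5 times before Egfl7 and 5 times before Cd34. It is a common word: 93.4% of all 32851 promoter windows of this length hold it, with a median of 3 per window. The longer CAGGAA, which contains GGAA, was found in 25.7% of all windows. It occurred 2 times before Klhl6, Tek, Cd34 and the first Egfl7 start, 1 time before Tie1 and the second Egfl7 start, and 0 times before the third Egfl7 start. Windows of both Klhl6 and the nearly level Cd34 thus held it. GATAA, the core of GATA factor sites, stood 2 times before Klhl6 and 1 time before the second Egfl7 start, against 22.6% of all windows. CAGATG, an E-box of the kind bound by Tal1, stood 1 time before Tie1 and 0 times in the other windows, against 14.4% of all windows. These are matches of letters, not measured binding.

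The 6 arrays had nearly the same distribution. Each had a median intensity of 45.1, a background peak of 38.8 or 38.9 and between 47.1% and 47.3% of probes above its background limit of 46.3 or 46.4. With 3 arrays a label, their number sets how precise any value can be. Eng itself did not separate the labels: its brighter probe read 87.0, 90.6 and 44.4 on wild type 1, 2 and 3, and 73.5, 45.4 and 48.7 on knockout 1, 2 and 3. The array labelled wild type 3 thus lay with knockout 2 and 3, and the array labelled knockout 1 lay nearer to wild type 1 and 2. The same 2 arrays stood apart from their labels in the results below. All directions follow the labels as deposited. By the position letter in the labels, wild type 1, knockout 1 and wild type 2 lay at slide positions A to C. Knockout 2, wild type 3 and knockout 3 lay at D to F. Slide position thus ran with the same split and cannot be told apart from it, also where position is fitted as a block below.

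Markers of nascent mesoderm and pluripotency were measurable in these embryoid bodies, while several endothelial markers lay near background. All 7 nascent mesoderm markers were above background on at least 3 arrays, among them T (3591.1 to 5612.3) and Mesp1 (549.0 to 3723.3), a factor of the earliest cardiovascular mesoderm. All 5 pluripotency markers were also present, among them Pou5f1 (2938.0 to 4686.8) and Nanog (1753.9 to 2417.7). Of 10 endothelial markers, 9 passed the same limit, among them Esam and the junction claudin Cldn5 (89.4 to 122.3). Cdh5, Esam, Pecam1, Tek and Tie1 among these 10 are members of the set, chosen with their values known. Icam2 passed only through wild type 1, wild type 2 and knockout 1. Vwf (47.0 to 53.1) and Emcn (50.6 to 64.8) passed on all 6 arrays but close to the limit. Of all 46632 probes, 22250 passed, and nothing is read from the count of endothelial markers. Of 12 blood markers 5 passed, and 3, Itga2b, Ptprc and Hbb-y, were above background on 0 arrays. In these bulk samples, fewer cells of a type and less RNA per cell cannot be told apart.

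Cdh5, Esam and Pecam1 encode adhesion molecules of the endothelial junction. Cdh5 read 108.4, 93.1 and 43.8 on wild type 1, 2 and 3, and 94.2, 49.9 and 51.6 on knockout 1, 2 and 3. It was high on wild type 1, wild type 2 and knockout 1, lay below the background limit on wild type 3, and the labels overlapped. Esam, an immunoglobulin-family molecule of endothelial tight junctions and platelets, read 235.3, 222.1 and 111.4 with the wild type label and 271.1, 106.7 and 122.6 with the knockout label. Its highest reading came from an array labelled knockout, and the same 3 arrays were high. After subtraction of the background peak, the brightest Esam array exceeded the dimmest 3.42-fold.

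Pecam1 (CD31), which mouse ES cells express as well as endothelium, varied less, and its 3 probes did not share a pattern. The brightest probe read 102.8, 97.9 and 71.2 with the wild type label and 98.1, 90.5 and 83.8 with the knockout label. The same 3 arrays were highest on it, by a narrow margin of 97.9 against 90.5. The second probe read 71.9, 76.6 and 70.7 against 67.7, 59.8 and 58.6, so there the arrays labelled wild type lay above those labelled knockout. Its labels did not overlap, as for 1 of the 13 member probes above the filter and 3.31% of all 22250 probes above it, each with the knockout arrays lower. With every probe tested, its difference of -0.18 (SE 0.07) was not called (limma adjusted p = 1). The third probe was above background on 0 arrays.

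Tek and Tie1 encode the endothelial receptor tyrosine kinases of the angiopoietin system, in which Tek binds the ligands and Tie1 acts with it. Tek read 84.6, 67.5 and 42.7 on wild type 1, 2 and 3, and 82.8, 46.8 and 43.3 on knockout 1, 2 and 3. It was again high on wild type 1, wild type 2 and knockout 1, and wild type 3 and knockout 3 lay below the background limit. Tie1 was dim throughout, at 52.8, 40.7 and 39.0 with the wild type label and 48.9, 33.9 and 36.2 with the knockout label. Only wild type 1 and knockout 1 exceeded the background limit, so Tie1 did not enter the test between the labels. Of the angiopoietin ligand genes, Angpt1 was above background on 2 arrays and Angpt2 on 1.

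Klhl6 had the widest range of the set, and both of its probes gave the same split. It encodes a BTB-kelch adaptor of a cullin ubiquitin ligase, is best known from B cells, and is not a surface molecule. The brighter probe read 1364.4, 1294.1 and 235.1 on wild type 1, 2 and 3, and 1169.8, 274.4 and 299.0 on knockout 1, 2 and 3. The 3 high readings and the 3 low ones left a wide gap, from 299.0 to 1169.8, and each label held arrays on both sides of it. The second, dim probe read 76.4, 70.6 and 45.5 against 66.9, 47.1 and 42.9, high and low on the same arrays. Over the 6 arrays the brighter probe spanned 5.80-fold as deposited, 6.75-fold after subtraction of the background peak and 5.38-fold on the corrected scale. On that scale it ranked 8 of 16618 features by range. Markers of lymphoid cells were mostly at background: Cd79a, Pax5 and Ptprc were above background on 0 arrays, Rag1 on 2, and Cd79b ranged from 48.2 to 54.3.

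**Figure D1:**
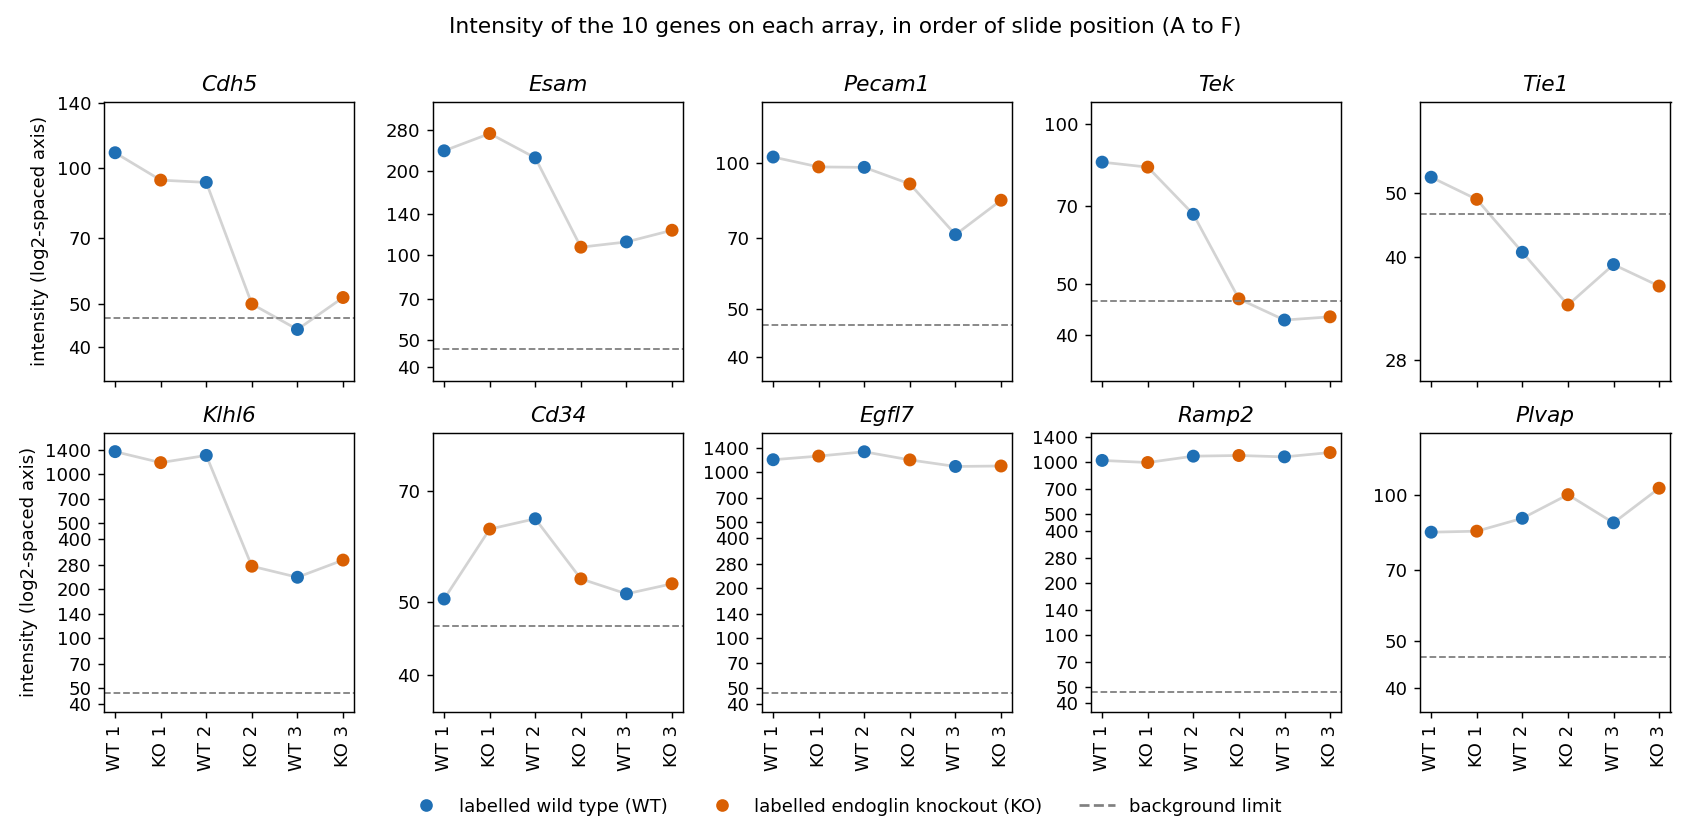
Intensity of each of the 10 genes (vertical axis, log2-spaced, a separate scale per gene; the brightest probe of each gene) on the 6 arrays in order of slide position A to F. Each point is 1 array, blue for the wild type label (WT) and orange for the knockout label (KO), and the dashed line is the background limit; Klhl6, Esam, Cdh5 and Tek are high on WT 1, KO 1 and WT 2, while Egfl7, Ramp2 and Plvap stay nearly level.

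Cd34, Egfl7, Ramp2 and Plvap formed the level part of the set. Cd34, a sialomucin of blood progenitors and vessels, lay just above background, at 50.4, 64.4 and 51.2 with the wild type label and 62.4, 53.6 and 52.8 with the knockout label. Wild type 2 and knockout 1 were its highest arrays, but wild type 1 was its lowest. Plvap, a component of the diaphragms of fenestrae and caveolae, read 83.7, 89.4 and 87.5 against 84.1, 100 and 103.1, with its 2 highest readings on knockout 2 and 3.

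Egfl7, a secreted vessel protein and host gene of miR-126, was measured by 4 probes. The brightest read 1185.8, 1324.2 and 1080.0 on wild type 1, 2 and 3, and 1247.3, 1182.8 and 1086.9 on knockout 1, 2 and 3. Wild type 1, wild type 2 and knockout 1 were again highest, but by only 1185.8 against 1182.8, and the whole range was 1.23-fold. The next probes ranged from 169.3 to 226.6 and from 47.4 to 59.4 without that order, and the fourth was above background on 0 arrays. Ramp2, which partners the receptor Calcrl to form an adrenomedullin receptor, had the narrowest range of the 9 genes tested, from 997.7 on knockout 1 to 1140.0 on knockout 3, or 1.14-fold. Its receptor partner Calcrl was above background on 1 array, and the ligand gene Adm on 4, from 42.3 to 57.3.

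**Figure D2:**
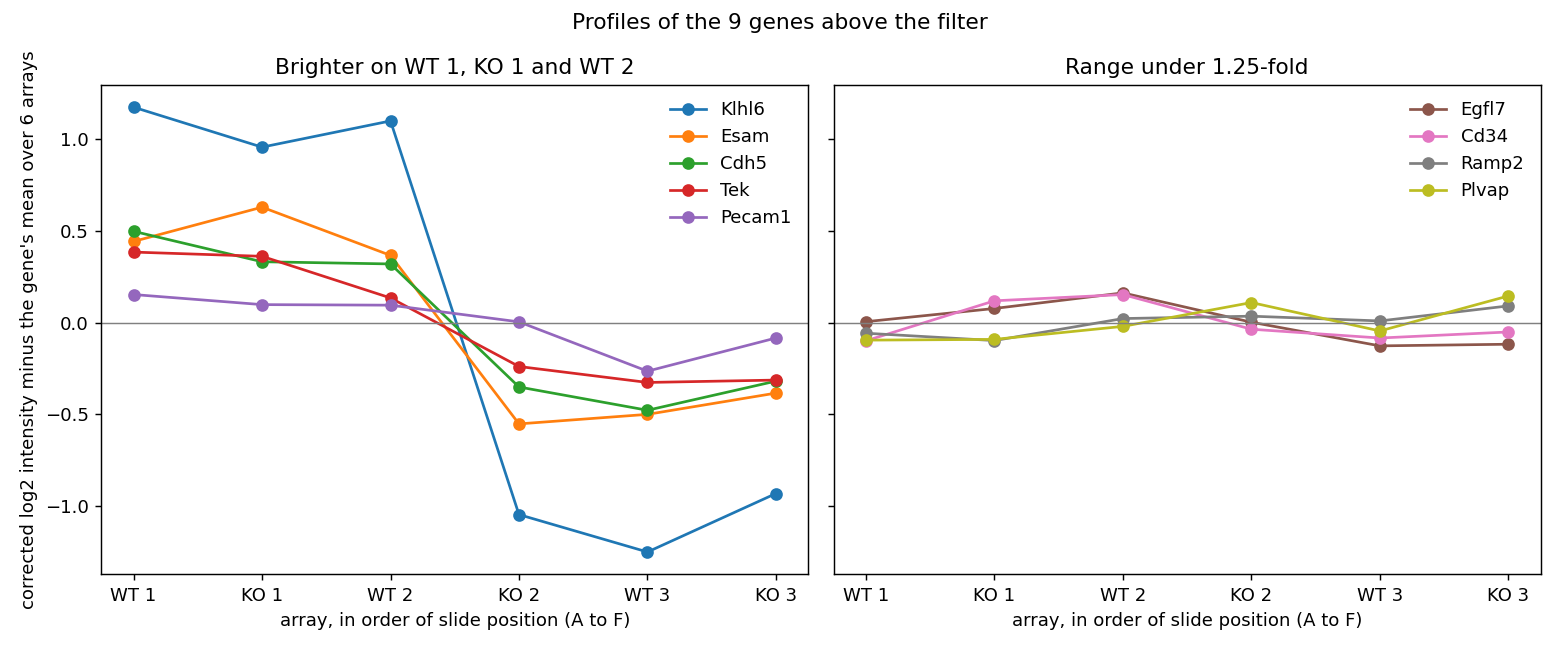
Corrected log2 intensity of each of the 9 genes that passed the filter on dim probes, minus the gene's own mean over the 6 arrays (vertical axis), by array in order of slide position (horizontal axis). The left panel holds Klhl6, Esam, Cdh5, Tek and Pecam1, which are highest on WT 1, KO 1 and WT 2, and the right panel holds Egfl7, Cd34, Ramp2 and Plvap, whose ranges are 1.14-fold to 1.22-fold.

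The width of these ranges was set beside all features on the array. On the corrected scale, in which an offset of 50 shrinks the differences of dim probes, the brightest array exceeded the dimmest 2.27-fold for Esam, 1.97-fold for Cdh5, 1.64-fold for Tek and 1.34-fold for Pecam1. A range of at least 1.5-fold was reached by 4 of the 9 genes and by 5.64% of all features, and a range of at least 2-fold by 2 of the 9 and 0.897% of all features. Wild type 1, wild type 2 and knockout 1 all lay above the other 3 arrays for 6 of the 9 genes, against 14.7% of all features, and all lay below them for 0 of the 9, against 15.4%. Being higher on those 3 arrays with a range of at least 1.5-fold applied to 4 of the 9 genes and 2.62% of all features. Since the genes were picked with these values known, the counts describe the choice and nothing is read from them. Of the 4 arrays on which Tek exceeded the background limit, 3 were those on which it was high.

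Over the 9 genes together, the arrays grouped in the same way, although Cd34, Ramp2 and Plvap taken singly did not. Klhl6, with the widest range, contributed most to the distances of the distant pairs, and the genes were chosen with these values known. The root mean square log2 difference was 0.137 between knockout 1 and each of wild type 1 and 2, and 0.839 and 0.794 between knockout 1 and knockout 2 and 3. Wild type 3 differed from knockout 2 and 3 by 0.143 and 0.156, and from wild type 1 and 2 by 0.968 and 0.907. Over all features the corresponding values were 0.128 to 0.147 for the close pairs and 0.228 to 0.251 for the distant ones, so the split was not limited to these genes.

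The comparison that the series names, knockout against wild type, was fitted with limma to all 16618 features. At an adjusted p under 0.05, 0 of the 9 genes and 0 features (0%) were called, with 363 features at an unadjusted p under 0.05 and 0 of them among the 9 genes. Klhl6 averaged 9.60 ± 1.38 (SD, n = 3) on the corrected log2 scale with the wild type label and 8.92 ± 1.12 (SD, n = 3) with the knockout label. The difference of -0.68 (SE 0.75) was smaller than either spread (limma adjusted p = 0.999, 1.29e-07 to 1 over the alternatives). The limma adjusted p of 1.29e-07 came only from omitting both knockout 1 and wild type 3, decided once their values were known. Under every other alternative the limma adjusted p of Klhl6 was at least 0.613, the value with array weights. Cdh5 differed by -0.23 (SE 0.28), Esam by -0.21 (SE 0.35) and Tek by -0.13 (SE 0.22), each with a limma adjusted p of 0.999.

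The level genes had narrower intervals. Ramp2 differed by 0.02 with a 95% interval of -0.14 to 0.18, Egfl7 by -0.03 with an interval of -0.24 to 0.19, Cd34 by 0.02 with an interval of -0.19 to 0.23, and Plvap by 0.11 with an interval of -0.07 to 0.29. The interval of Klhl6 ran from -2.42 to 1.05 and that of Pecam1, which differed by 0.01, from -0.26 to 0.28. The median over the 9 genes was -0.03, beside 0.003 over all features, and 5 of the 9 were lower with the knockout label. The labels did not overlap for 0 of the 9 genes, against 6.99% of all features, 3.24% with the knockout arrays lower and 3.75% with them higher.

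Within slide positions, where one label has only 1 array, the labels were compared without a test. Among positions A to C, knockout 1 minus the mean of wild type 1 and 2 was -0.18 for Klhl6, -0.08 for Cdh5, 0.23 for Esam, 0.10 for Tek, -0.03 for Pecam1 and -0.03 for Plvap on the log2 scale. Among positions D to F, the mean of knockout 2 and 3 minus wild type 3 was 0.26 for Klhl6, 0.14 for Cdh5, 0.03 for Esam, 0.05 for Tek, 0.23 for Pecam1 and 0.17 for Plvap. For the brightest probes of the 9 genes, these differences ran from -0.18 to 0.23 at positions A to C and from 0.03 to 0.26 at D to F. Those at D to F all rest on the same single array, wild type 3. The other probes of these genes above the filter were negative at D to F. They gave -0.19 for Pecam1, -0.01 and -0.03 for Egfl7 and -0.01 for Klhl6. With position as a block, the Klhl6 difference was 0.04 (SE 0.10), and 0 of the 9 genes and 0% of features were called.

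Without the arrays labelled knockout 1 and wild type 3, an omission decided on once their values were known, 4 of the 9 genes were called, all lower with the knockout label, against 4.28% of all features called lower and 8.05% called either way. The difference was then -2.13 (SE 0.08) for Klhl6, -0.87 (SE 0.09) for Esam, -0.74 (SE 0.09) for Cdh5 and -0.54 (SE 0.10) for Tek, with limma adjusted p-values of 1.29e-07, 0.00013, 0.000404 and 0.00614. Pecam1, Cd34, Egfl7, Ramp2 and Plvap were not called, at -0.16, -0.07, -0.14, 0.08 and 0.19. Because the omission followed the values, these calls cannot count as independent evidence.

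**Figure D3:**
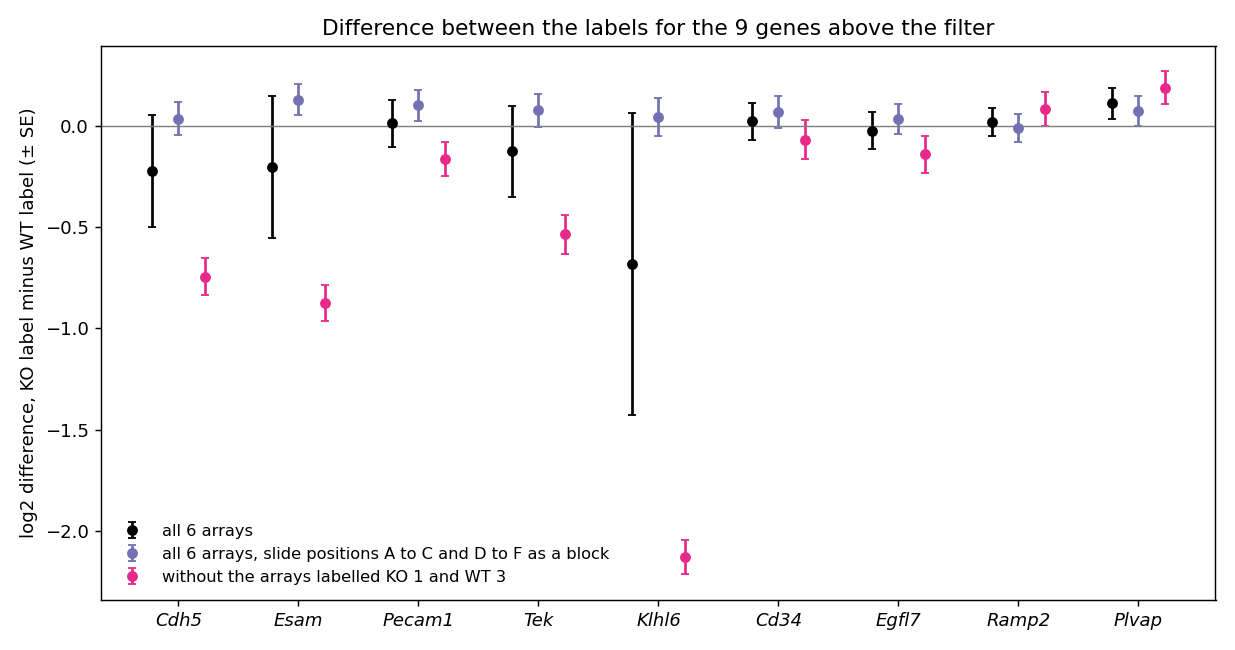
Log2 difference of the knockout label (KO) minus the wild type label (WT) for the 9 genes tested, as points with the limma SE, over all 6 arrays (black), with slide positions A to C and D to F as a block (purple), and without the arrays labelled KO 1 and WT 3 (pink). The error of Klhl6 over all 6 arrays, 0.75, is the widest of the 9, each label holding high and low arrays, and its value is -2.13 once those 2 arrays are left out.

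Genes related to the set were examined from a list of 59, of which 47 were above background on at least 3 arrays. The list is not confined to endothelial markers. It holds the targeted gene Eng and the cadherin and catenin genes Cdh1, Cdh2, Ctnnb1 and Ctnnd1. In limma 0 of the 47 were called between the labels (0% of all features). With the knockout label 32 were lower and 15 higher, and the median was -0.06, beside 0.003 over all features. With slide position as a block, 26 were lower and 21 higher, with a median of -0.002. Of the 47, 24 were higher on wild type 1, wild type 2 and knockout 1 than on the other 3 arrays, 5 were lower on them, and 18 had a range of at least 1.5-fold, beside 14.7%, 15.4% and 5.64% of all features. The 24 include Eng, and the 5 include Cdh1. The 24 also include Sox7 and Icam2, which passed the filter only through those 3 arrays. The list was chosen with earlier results known, so nothing is read from the counts. The 6 widest ranges, partner genes of the members apart, belonged to the VEGF and semaphorin co-receptors Nrp1 (6.48-fold) and Nrp2 (3.08-fold) and to the transcription factors Tal1 (4.53-fold), Gata2 (4.30-fold), Etv2 (3.38-fold) and Lmo2 (2.34-fold), which act in the origin of blood and endothelium. Nrp1 read 500.5, 444.8 and 66.8 with the wild type label and 482.8, 57.8 and 70.7 with the knockout label, and was thus high on the arrays on which Klhl6 was high. Without the 2 arrays that stood apart, an omission that followed the values, 21 of the 47 were called, beside 8.05% of all features. Of these, 20 were called lower with the knockout label, beside 4.28%, and Eng was among the 20.

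The VEGF receptors of the list differed in pattern. Flt1, a decoy-like VEGF receptor, read 400.2, 408.2 and 200 with the wild type label and 447.8, 239.3 and 238.8 with the knockout label, high on the same 3 arrays. Kdr (Flk1), the main signalling receptor, read 84.1, 111.0 and 130.2 against 108.2, 119.8 and 91.2, without that order. Among the relatives of the level genes, Ramp3 read 79.9, 101.3 and 113.0 against 85.9, 115.1 and 130.5, and so was lowest on wild type 1, knockout 1 and wild type 2. Ramp1 was above background on 0 arrays, and Egfl8, a paralogue of Egfl7, ranged from 40.4 to 53.4.

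**Figure D4:**
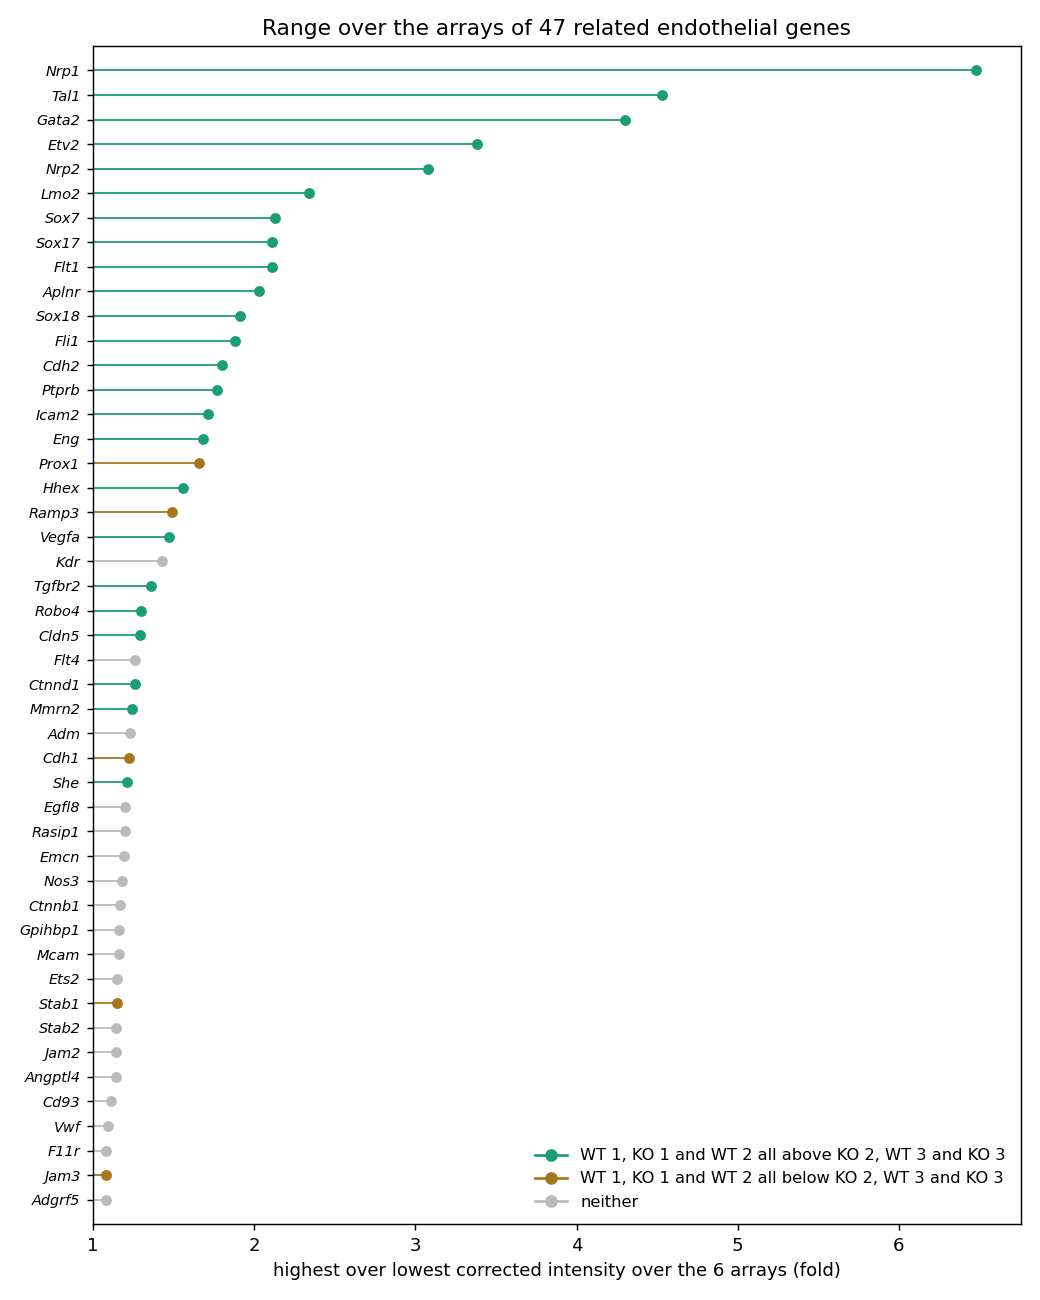
Highest over lowest corrected intensity over the 6 arrays (horizontal axis, fold) for the 47 related endothelial genes above background, ordered by range (vertical axis). Green marks genes whose WT 1, KO 1 and WT 2 arrays all lay above the other 3 (24 genes), brown those that lay below (5 genes), and grey the rest; Nrp1 has the widest range at 6.48-fold.

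Most nascent mesoderm markers and all pluripotency markers ran along the same split, in opposite directions. Among all features, 14.7% were higher and 15.4% lower on all 3 of those arrays. Of 7 nascent mesoderm markers 6 were higher on wild type 1, wild type 2 and knockout 1 than on the other arrays, with a summed intensity of 6461 to 12600 with the wild type label and 7512 to 12519 with the knockout label. All 5 pluripotency markers were lower on those 3 arrays, with sums of 5232 to 7337 and 5261 to 7305. Of 5 cardiac markers 3 were higher there, among them Myl7 (49.5 to 229.5) and Myl4 (60.8 to 144.4), with sums of 246 to 518 and 235 to 417. The other of these 3, Nkx2-5, was dim (43.1 to 62.7). Of the rest, Hand2 was above background on 2 arrays and Tnnt2 on 0. Of 12 blood markers 3 were higher on wild type 1, wild type 2 and knockout 1, with sums of 620 to 729 and 640 to 666. Of these 3, Itga2b was above background on 0 arrays, Gfi1b on 2 and Runx1 only on those 3, so nothing is read from the count. Hbb-bh1 (135.5 to 188.8) and Klf1 (60.0 to 70.5), above background on all 6 arrays, were not among them. The part of these cell types in the values of the endothelial genes was not tested.

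The genes nearest in pattern were found by the root mean square difference between centred log2 profiles over the 6 arrays, among 12925 other named genes. Nearest to the mean of Cdh5, Tek, Esam and Klhl6 were Rgs5 (0.0304), a regulator of G protein signalling known from pericytes, St3gal6 (0.0622), D430041D05Rik (0.0648), the BMP effector Smad1 (0.0668), Chst7 (0.0689), Lmo2 (0.081), Evx1os (0.0835) and the cyclin Ccnd2 (0.0885). Rgs5 read 121.3, 111.8 and 40.3 with the wild type label and 117.8, 41.7 and 42.9 with the knockout label, with wild type 3, knockout 2 and knockout 3 below the background limit. Nearest to Klhl6 alone were the growth factor Fgf10 (0.0967), Mesp1 (0.105), the BMP-binding protein Bmper (0.117), the heparan sulfate sulfotransferase Hs3st3b1 (0.123) and Tal1 (0.136). Fgf10 read 812.4, 719.7 and 152.1 against 736.0, 143.3 and 174.7, again high on wild type 1, wild type 2 and knockout 1.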

How the data were processed

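Total RNA of 6 samples, 3 labelled wild type and 3 labelled endoglin knockout, was measured on Illumina bead arrays. The deposited table of the authors holds linear intensities, 1 for each probe on each array, and their normalization method is not given in the labels or headers. The 6 columns shared nearly one distribution. The 12 value columns of a second deposited table matched no sample label and were not used; its symbol column served for naming. Of 46632 probes, 29976 had 1 gene in the platform annotation, 10 had several, and 5136 more were named through that column and the RefSeq gene table.

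With limma 3.58.1 in R 4.3.3, normexp background correction (offset 50) was applied and log2 was taken. Kept probes exceeded a background limit on at least 3 arrays, the 95% point of a normal curve about the array's commonest intensity; the brightest kept probe stood for a gene, which left 16618 features. Labels were compared with lmFit and eBayes (two-sided, Benjamini-Hochberg over all features, threshold 0.05); the script was tested on simulated data. Genes named are all 10 members, the partner genes of a list of 59 related genes with its 6 widest ranges, the 2 brightest genes of each marker list, and the nearest profiles by a fixed rule; further marker genes were named after their values were seen, and 1 marker gene is not reported here. The members and lists were chosen with earlier results of these data known. Alternatives changed the correction, the scaling, the filter, the choice of probes, the variance estimate, weights, blocks, the threshold and the arrays used.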

Additional observations from a re-analysis of the deposited data

How the results depend on the processing

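The 0 features called between the labels and the 0 of 47 related genes called stayed at 0 with intensities left uncorrected or with the peak subtracted, after quantile or cyclic loess scaling, with the dim-probe filter removed or tightened, with probes kept separate, with robust trended moderation, with array weights, with replicate number or slide position as a block, with a 2-fold threshold (features only) and with any 1 array left out. With knockout 1 and wild type 3 both omitted, a setting added after the data were seen, these counts were 1338 and 21. The median over the 9 member genes ranged from -0.12 to 0.03 with 1 array left out, was -0.16 without those 2 arrays, and was 0.07 with the slide position block, where 1 of the 9 was lower in place of 5. Signs of single genes were not stable, except that Plvap stayed positive under every alternative, from 0.06 to 0.19. With the slide position block, the difference was 0.03 for Cdh5, 0.08 for Tek, 0.13 for Esam, 0.03 for Egfl7, -0.01 for Ramp2 and 0.04 for Klhl6. With array weights it was -0.06 for Pecam1 and -0.04 for Cd34, and without the 2 arrays -0.16 and -0.07. Without them it was also -2.13 for Klhl6, -0.87 for Esam, -0.74 for Cdh5, -0.54 for Tek and -0.14 for Egfl7. With 1 array left out, it ranged from -0.12 to 0.09 for Pecam1, -0.34 to 0.03 for Tek, -0.57 to 0.02 for Esam, -0.03 to 0.10 for Cd34, -0.10 to 0.05 for Egfl7, -0.02 to 0.07 for Ramp2, -0.52 to -0.03 for Cdh5 and -1.48 to -0.26 for Klhl6; the cause was not tested. Tie1 entered only without the filter, at -0.10. It cannot be told if replicate numbers pair the arrays. Deviations of same-numbered arrays correlated at 0.61, -0.30 and 0.53 for replicates 1, 2 and 3. The arrays of replicate 1 both lay at positions A to C and those of replicate 3 at D to F, while those of replicate 2 lay at C and D. The replicate block gave -0.68 for Klhl6 (SE 0.41) and a median of -0.03. Signal near background limits Tie1, Tek and Cd34, and also Cdh5 on wild type 3, knockout 2 and knockout 3 (43.8, 49.9 and 51.6).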

Other observations

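Markers of other cell types known to express single genes of the set were read as well. Of 4 platelet and megakaryocyte markers on the array, 0 were above background on at least 3 arrays, and Ppbp and Pf4 reached 47.7 and 47.5. Of 6 fibroblast markers, the collagens Col1a1, Col1a2 and Col3a1 were above background on 0 arrays, while Acta2 ranged from 163.7 to 211.6 and Thy1 from 161.4 to 197.7. Their summed intensity was 531 to 536 under the wild type label and 502 to 535 under the knockout label. Thy1 was lower on wild type 1, wild type 2 and knockout 1 than on the other 3 arrays, as was Col1a2, so that 2 of the 6 lay in that order, beside 15.4% of all features. Those features passed the filter and Col1a2 did not, so nothing is read from the count.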
